A study of Rattus norvegicus with 18 samples.

Results

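The genes described here are 10 genes by which reactive astrocytes are commonly recognised: the intermediate filament genes Gfap, Vim, Nes and Synm, the S100 genes S100b and S100a10, and Serpina3n, Cd44, Aldh1l1 and Ptx3. They were chosen by symbol, and all 10 are among the 16704 gene symbols counted in both cell types of the series. RNA was sequenced from wild-type primary rat astrocytes and microglia that were left untreated as controls or were exposed for 24 h to Aβ42 or Aβ40 fibrils, with 3 libraries for each of the 6 groups. Both cell types came from cortices of Sprague-Dawley pups at postnatal day 2, the microglia being shaken off a mixed glial culture and the astrocytes being the layer that stayed behind. The cells were neonatal glia grown and plated in medium with serum, and moved to serum-free medium shortly before the fibrils were added. No group received a non-fibrillar peptide. The labels do not say whether the replicates were separate cultures or litters, so the p-values measure the spread between these libraries, which may be technical.

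Astrocytes are the glial cells that support synapses, buffer ions and transmitters and contact blood vessels. After injury or inflammation they enter graded reactive states that are usually recognised by more glial fibrillary acidic protein, the product of Gfap, which assembles with vimentin, nestin and synemin into intermediate filaments. Other genes rise with inflammatory signals, among them Serpina3n, a secreted serine protease inhibitor, Cd44, the receptor for the matrix sugar hyaluronan, and Ptx3, a secreted pentraxin that binds microbes and complement. Aldh1l1, a folate enzyme, and S100b, a calcium-binding protein, are used as general astrocyte markers, and S100a10 is the partner of annexin A2. Gfap, Vim, Serpina3n and Cd44 belong to a set often called pan-reactive, and S100a10 and Ptx3 to a set that has been labelled A2, in contrast to a set labelled A1.

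The stretch of 250 bases before the transcription start of a gene is shown for 4 members, because motifs of inflammatory transcription factors were looked for there and because Ptx3 and Serpina3n rose in the cells described below whereas Vim and Gfap fell in astrocytes. The sequences are RefSeq's for the rat assembly GRCr8, run 5′ to 3′ in the direction of the gene, and carry matches in capitals. Of the 10 genes, 9 had such an entry, S100a10 being the one without.
Ptx3, chr2:152797313-152797562, plus strand: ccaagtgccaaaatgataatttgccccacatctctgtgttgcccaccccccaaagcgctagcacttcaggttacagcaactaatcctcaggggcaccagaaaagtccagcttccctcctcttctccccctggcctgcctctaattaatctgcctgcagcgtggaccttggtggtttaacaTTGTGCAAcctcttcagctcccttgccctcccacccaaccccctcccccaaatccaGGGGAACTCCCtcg
Serpina3n, chr6:129088142-129088391, plus strand: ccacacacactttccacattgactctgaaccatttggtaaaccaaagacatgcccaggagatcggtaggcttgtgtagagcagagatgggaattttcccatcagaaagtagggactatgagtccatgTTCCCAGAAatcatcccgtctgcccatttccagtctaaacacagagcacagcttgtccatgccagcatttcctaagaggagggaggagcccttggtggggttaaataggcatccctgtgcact
Vim, chr17:81577011-81577260, plus strand: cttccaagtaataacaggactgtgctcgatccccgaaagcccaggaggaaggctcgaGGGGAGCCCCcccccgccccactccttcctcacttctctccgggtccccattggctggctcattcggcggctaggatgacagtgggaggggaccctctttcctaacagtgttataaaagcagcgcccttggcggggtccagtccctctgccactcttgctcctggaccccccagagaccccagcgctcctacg
Gfap, chr10:88361662-88361911, minus strand: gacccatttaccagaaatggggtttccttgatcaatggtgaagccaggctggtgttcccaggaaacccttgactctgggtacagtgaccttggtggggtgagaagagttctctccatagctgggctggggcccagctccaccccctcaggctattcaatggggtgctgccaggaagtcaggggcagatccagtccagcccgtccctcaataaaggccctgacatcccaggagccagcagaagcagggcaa

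In the Ptx3 stretch, 2 overlapping matches to the NF-κB consensus lay 14 to 4 bases before the start, and a match to the C/EBP motif TTGCNNAA lay 70 to 63 bases before it. The Serpina3n stretch held 1 match to the STAT motif TTCNNNGAA, 123 to 115 bases before the start. The Vim stretch held 1 match to the NF-κB consensus, 193 to 184 bases before the start, and the Gfap stretch held none of the 4 motifs searched. The remaining 5 genes with an entry, Nes, Synm, S100b, Cd44 and Aldh1l1, had no match either, and no gene had one to the AP-1 motif TGANTCA. Both strands were searched. Among 33469 rat promoters of the same length, 3.54% held the NF-κB consensus, 7.67% the STAT motif, 6.34% the AP-1 motif and 9.22% the C/EBP motif. A match describes letters only, and binding was not measured.

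Levels are given as scaled CPM, the usual expression of counts as parts of the library's total on genes, after scaling for library size and composition. The counts on genes of a library ran from 3674043 to 19013919 in astrocytes and from 2271834 to 22274367 in microglia, and 3 counts, used as the detection limit, corresponded to 0.160 to 0.835 and to 0.130 to 1.38 scaled CPM. Such limits cover counting error only. The summed level of 15 astrocyte markers was 9037 to 10775 CPM in control astrocytes and 1379 to 1561 CPM in control microglia, and that of 13 microglial markers was 9027 to 10592 CPM in control microglia and 521 to 658 CPM in control astrocytes. Gjb6 and Cldn10, connexin and claudin genes of mature astrocytes, were close to the detection limit in the astrocytes. The endothelial marker Cldn5 was at 0 in every library, but 5 endothelial markers summed to 161 to 173 CPM in control microglia. In control astrocytes that sum was 5.49 to 8.38 CPM. Summed over 10 oligodendrocyte-lineage markers, the level was 2165 to 3321 CPM in control astrocytes and 2575 to 2854 CPM in control microglia. What part of the counts of the 10 genes came from such cells was not tested. Control astrocyte replicate 2 and Aβ42-treated microglia replicate 1 stood apart from their groups. Their mean correlation with their group was 0.947 and 0.961 across genes. For some genes the results without these libraries are given as well.

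In astrocytes the 4 intermediate filament genes and both S100 genes fell with Aβ42 fibrils, while Ptx3, Serpina3n, Cd44 and Aldh1l1 rose. The changes ran from 4.47-fold lower for Synm to 20.3-fold higher for Ptx3. All 10 genes had an adjusted p-value under 0.05 in edgeR's quasi-likelihood test, 4 higher and 6 lower, against a background of 37% of the 11690 genes tested, 16.5% higher and 20.4% lower. For each of the 10 genes every treated library lay on one side of every control, as was the case for 45.7% of all tested genes.

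**Figure D1:**
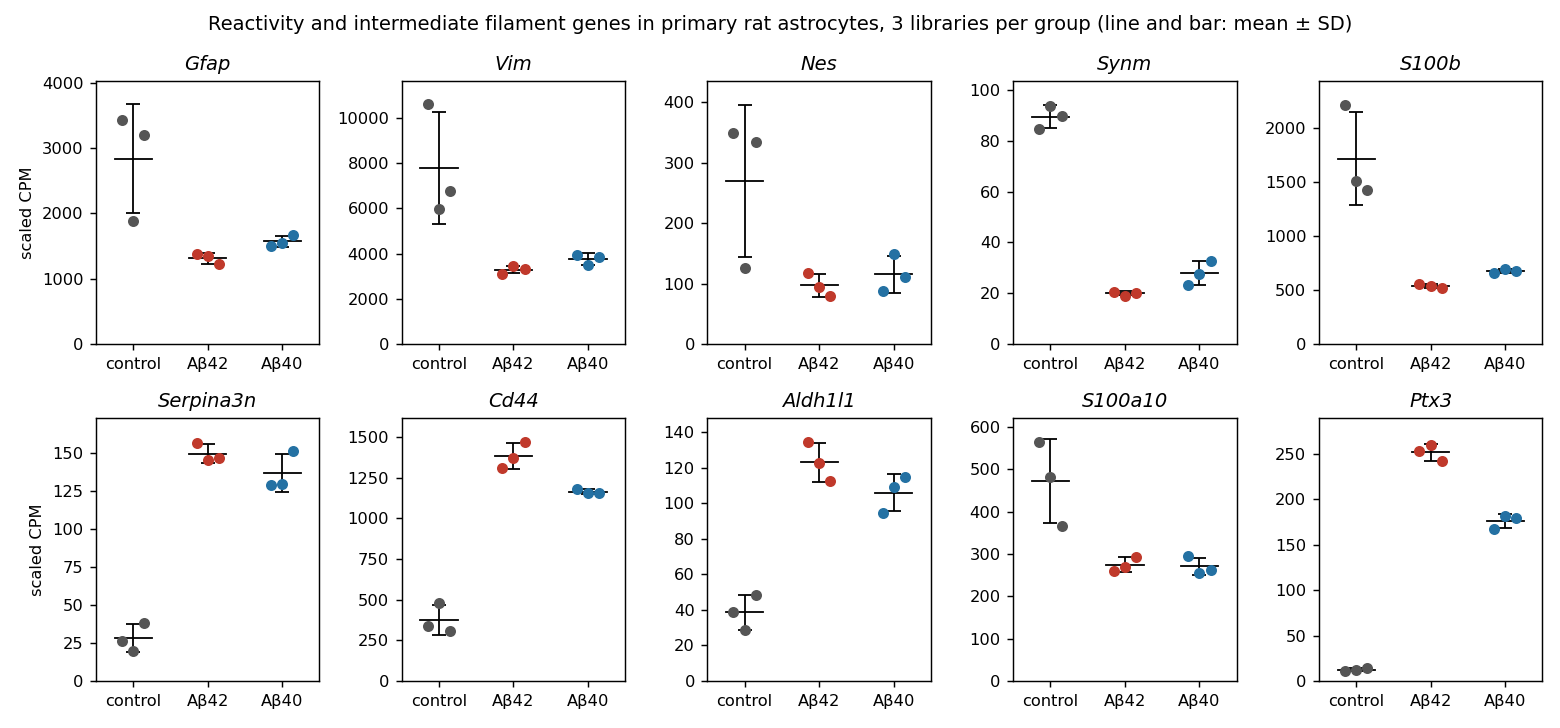
Level of each of the 10 genes in astrocytes, in scaled CPM on axes that start at 0, for control (grey), Aβ42 (red) and Aβ40 (blue) cells; each point is 1 library and the line and bar give the mean ± SD of 3. The 6 genes of the filament and S100 groups lie lower in both fibril groups, and Serpina3n, Cd44, Aldh1l1 and Ptx3 lie higher, with the widest spread among the controls of Gfap, Vim and Nes.

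Gfap encodes the filament protein by which astrocytes are most often identified. Its level was 3436, 1886 and 3196 CPM in control replicates 1, 2 and 3, 1378, 1349.9 and 1219 CPM with Aβ42 fibrils and 1505, 1543 and 1673 CPM with Aβ40 fibrils. All fibril-treated libraries lay under the lowest control library, which was replicate 2, and they spread far less than the controls. The log2 fold change was −1.11 ± 0.19 (SE) with Aβ42, adjusted p = 9.61e-04, and −0.85 ± 0.19 with Aβ40, adjusted p = 0.00561. Without control replicate 2, these values were −1.33 and −1.07.

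Vim encodes vimentin, which forms the filaments of immature and reactive astrocytes together with Gfap. The controls measured 10602, 5972 and 6779.6 CPM, against 3119.7, 3456 and 3318 CPM with Aβ42 and 3940.4, 3488 and 3877 CPM with Aβ40. Control replicate 1 was the highest library, and no treated library reached the controls. The level was 2.36-fold lower with Aβ42, a log2 fold change of −1.24 ± 0.19 with adjusted p = 4.10e-04, and 2.07-fold lower with Aβ40, at −1.05 ± 0.19 with adjusted p = 0.00140.

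Nes encodes nestin, a large filament protein of neural progenitors that returns in some reactive astrocytes. The control libraries held 349, 126 and 334 CPM, those with Aβ42 118, 94.9 and 80.3 CPM and those with Aβ40 87.7, 148 and 111 CPM. Control replicate 2 lay far under the other controls and inside the range of the Aβ40 libraries, so that these groups overlapped. The log2 fold change was −1.47 ± 0.34 with Aβ42, adjusted p = 0.00600, and −1.22 ± 0.34 with Aβ40, adjusted p = 0.0171. The Aβ40 call was lost when control replicate 1 or 3 or Aβ40 replicate 1 or 3 was left out. The adjusted p-values were then 0.0749, 0.0587, 0.0702 and 0.0572. Without control replicate 2, the log2 fold changes were −1.80 with Aβ42 and −1.55 with Aβ40.

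Synm encodes synemin, a filament protein that does not assemble alone and joins vimentin filaments to other structures. Its control libraries lay close together at 84.6, 93.6 and 89.9 CPM, and the level was 20.6, 19.1 and 20.3 CPM with Aβ42 and 23.4, 27.8 and 32.6 CPM with Aβ40. It had the largest fall of the 10 genes with either fibril, 4.47-fold and 3.19-fold, with log2 fold changes of −2.16 ± 0.15 (adjusted p = 9.78e-07) and −1.68 ± 0.14 (adjusted p = 6.07e-06).

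The S100 genes fell as well. S100b measured 2208, 1509 and 1422 CPM in the controls, 559, 542 and 519 CPM with Aβ42 and 656, 698 and 679 CPM with Aβ40, and the highest treated library lay far under the lowest control. Its log2 fold change was −1.67 ± 0.16 with Aβ42, adjusted p = 1.30e-05, and −1.34 ± 0.16 with Aβ40, adjusted p = 7.19e-05. S100a10, whose product is held in a complex with annexin A2 at membranes, measured 565, 483 and 367 CPM in the controls, 259, 269 and 294 CPM with Aβ42 and 294, 256 and 261 CPM with Aβ40. It fell by 0.78 ± 0.15 and by 0.80 ± 0.15 on the log2 scale, the smallest changes among the 10 genes in each comparison, with adjusted p = 0.00220 and 0.00215. Anxa2, its partner, did not pass the test in astrocytes, with log2 fold changes of −0.23 ± 0.11 (adjusted p = 0.135) and −0.047 ± 0.11 (adjusted p = 0.788).

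Ptx3 had the largest rise of the 10 genes. The controls held 10.6, 12.2 and 13.8 CPM, against 253, 260.1 and 242 CPM with Aβ42 and 168, 182 and 179.9 CPM with Aβ40, and in each group the libraries lay close together. The level was 20.3-fold higher with Aβ42, a log2 fold change of 4.34 ± 0.14 with adjusted p = 5.08e-09. With Aβ40 it was 14.2-fold higher, a log2 fold change of 3.83 ± 0.14 with adjusted p = 1.09e-08. Its promoter stretch is the one printed above with both NF-κB and C/EBP matches, and a part of these matches in the rise was not tested.

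Serpina3n rose from 26.2, 19.9 and 38.3 CPM in the controls to 156, 145 and 147 CPM with Aβ42 and 129, 129.5 and 151 CPM with Aβ40. The lowest treated library lay well above the highest control, which was replicate 3. The rises were 5.19-fold and 4.75-fold, with log2 fold changes of 2.38 ± 0.21 (adjusted p = 5.87e-06) and 2.25 ± 0.21 (adjusted p = 9.72e-06). Without control replicate 2, the log2 fold changes were 2.17 and 2.04. Serpina3n lies in a cluster of near-identical copies, so the split of reads between copies is uncertain. Of the copies listed, Serpina3c and Serpina3m were at 0 counts in every astrocyte library and at 0 or 1 count in every microglia library.

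Cd44 measured 339, 481 and 309 CPM in control astrocytes, 1312, 1374 and 1468 CPM with Aβ42 and 1181, 1154 and 1157 CPM with Aβ40, without overlap between controls and treated cells. Its log2 fold change was 1.88 ± 0.16 with Aβ42, adjusted p = 4.90e-06, and 1.63 ± 0.16 with Aβ40, adjusted p = 1.55e-05. Leaving out control replicate 2 gave 2.11 and 1.85. Since microglia express Cd44 too, the microglial markers were read beside it: their summed level in the astrocyte libraries was 521 to 658 CPM in the controls, 166 to 183 CPM with Aβ42 and 145 to 157 CPM with Aβ40. In microglia themselves the same sum went from 9027 to 10592 CPM in the controls to 2427 to 3693 CPM with Aβ42 and 3270 to 3846 CPM with Aβ40 while their Cd44 rose, so the sum does not measure the number of microglia in the astrocyte cultures, and their part in the Cd44 rise was not tested. In bulk RNA, fewer cells of a type and less RNA per cell cannot be told apart.

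Aldh1l1, which oxidises a folate carrier of one-carbon units in the cytosol, was at 38.7, 29.0 and 48.5 CPM in the controls, 135, 123 and 113 CPM with Aβ42 and 94.4, 109 and 115 CPM with Aβ40. Every treated library was above every control library. The rises were 3.15-fold and 2.71-fold, with log2 fold changes of 1.65 ± 0.18 (adjusted p = 3.67e-05) and 1.44 ± 0.18 (adjusted p = 1.12e-04). Of the 2 general astrocyte markers among the 10 genes, Aldh1l1 thus rose where S100b fell.

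With Aβ40 fibrils the same 4 genes passed the test as higher and the same 6 as lower, against a background of 33.3% of tested genes, 14.9% higher and 18.4% lower. Treated and control libraries were separate for 9 of the 10 genes, Nes being the exception, and for 43.2% of all tested genes. Both fibril comparisons share the control libraries, so the values above are given side by side and no overlap between them was tested.

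Set against each other in astrocytes, Aβ42 and Aβ40 fibrils gave no called difference for any of the 10 genes in edgeR's test, where 0.0855% of all tested genes were called, 0.0599% higher and 0.0257% lower with Aβ42. At an unadjusted p-value under 0.05 there were 2, Ptx3 and Synm, where 6.3% of all tested genes were, and DESeq2's Wald test called 1, Ptx3, where it called 1.21%. Ptx3 was higher with Aβ42 by 0.51 ± 0.12 on the log2 scale (adjusted p = 0.176), and the 3 Aβ42 libraries all lay above the 3 Aβ40 libraries. A fit of these 2 groups alone gave adjusted p = 0.00887 for Ptx3 and 0.0280 for S100b, and called 2.31% of its tested genes. Synm differed by −0.48 ± 0.14 (adjusted p = 0.358), S100b by −0.33 ± 0.16 (adjusted p = 0.856) and Gfap by −0.26 ± 0.19 (adjusted p = 1). For S100a10 the difference was 0.018 ± 0.15. The libraries of the fibrils were separate for 6 of the 10 genes, Gfap, Vim, Synm, S100b, Cd44 and Ptx3, and for 18.9% of all tested genes. These errors leave room for small differences between the fibrils in either direction.

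**Figure D2:**
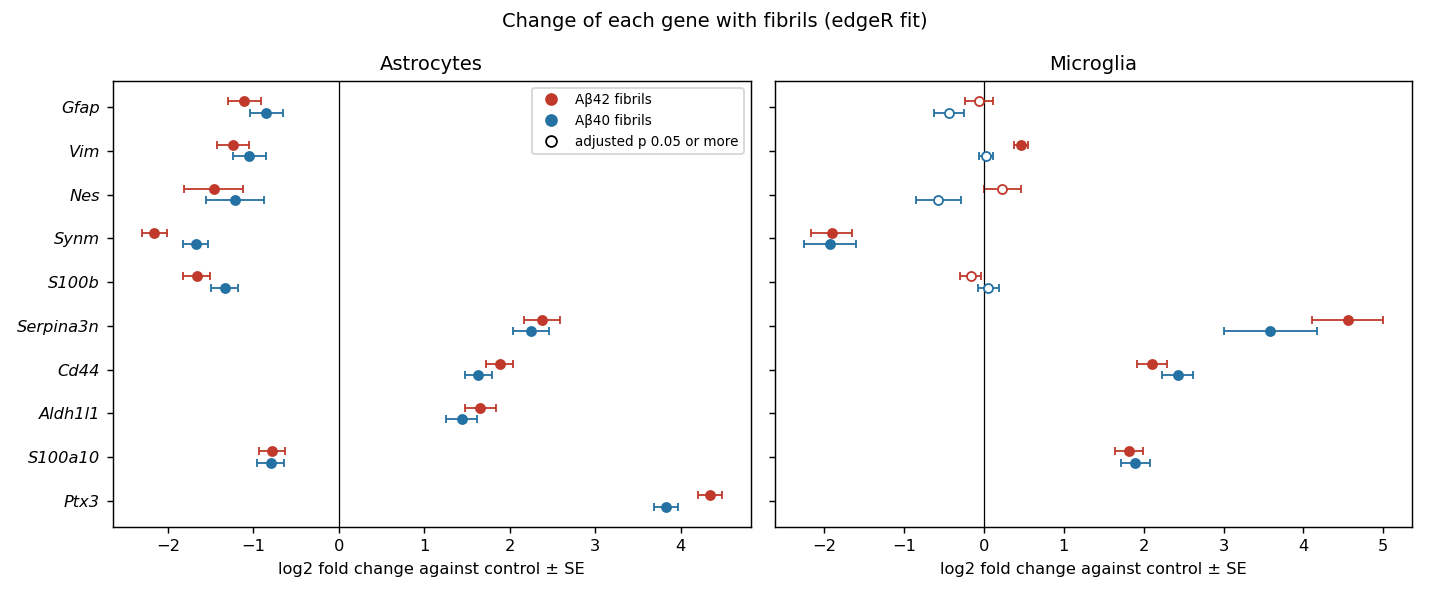
Log2 fold change ± SE of each gene against control, in astrocytes (left) and microglia (right), with Aβ42 in red and Aβ40 in blue; open points have an adjusted p-value of 0.05 or more. Gfap, Vim, Nes, Synm, S100b and S100a10 lie left of 0 in astrocytes, whereas in microglia S100a10 lies right of 0 and Gfap, Nes and S100b have open points; Aldh1l1 and Ptx3 were not tested in microglia.

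Microglia do not normally build Gfap filaments, and vimentin is their main cytoplasmic filament protein. In them 8 of the 10 genes had enough counts to be tested, which leaves out Aldh1l1 and Ptx3. With Aβ42 fibrils Vim, Serpina3n, Cd44 and S100a10 rose and Synm fell, which makes 5 called genes, against a background of 53.7% of the 10837 genes tested, 27.1% higher and 26.6% lower. With Aβ40 fibrils Serpina3n, Cd44 and S100a10 rose and Synm fell, against 41% of tested genes, 19.6% higher and 21.4% lower. Treated and control libraries were separate for 5 of the 8 tested genes with each fibril, where 54% and 59.5% of all tested genes were. Counted in either direction, the shares of the 8 genes are close to these backgrounds. By direction, Synm was the only called gene that was lower. With 8 genes, a departure from these shares by direction was not tested.

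Cd44 measured 691, 708 and 701 CPM in control microglia, 4081, 2319.7 and 2643 CPM with Aβ42 and 3474, 3411 and 4403 CPM with Aβ40. Each treated library was more than 3 times as high as any control, and Aβ42 replicate 1 lay far above the other 2 of its group. The log2 fold change was 2.11 ± 0.19 with Aβ42, adjusted p = 2.00e-06, and 1.82 without that replicate. With Aβ40 it was 2.43 ± 0.19, adjusted p = 7.71e-07.

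S100a10 rose in microglia from 97.2, 96.0 and 85.4 CPM in the controls to 446, 258 and 284 CPM with Aβ42 and 343, 339 and 354 CPM with Aβ40. Aβ42 replicate 1 was again the highest of its group. The rises were 3.52-fold and 3.72-fold, with log2 fold changes of 1.82 ± 0.18 (adjusted p = 3.86e-06) and 1.89 ± 0.18 (adjusted p = 3.51e-06), the former being 1.54 without Aβ42 replicate 1. Anxa2 rose too, by 1.39 ± 0.10 with Aβ42 (adjusted p = 3.44e-07) and by 0.98 ± 0.10 with Aβ40 (adjusted p = 8.49e-06).

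Serpina3n was at or under the detection limit in control microglia, with 2, 0 and 3 counts. It was at 5.998, 6.80 and 5.47 CPM with Aβ42, from 15, 157 and 96 counts, and at 2.17, 4.25 and 2.76 CPM with Aβ40, from 9, 19 and 6 counts. Set against the level that 3 counts in each control library would give, this was 13.1-fold higher with Aβ42 and 6.60-fold higher with Aβ40. These 2 ratios were not tested themselves. In edgeR's test on the counts, the log2 fold change was 4.55 ± 0.45 with Aβ42 (adjusted p = 3.52e-06) and 3.59 ± 0.58 with Aβ40 (adjusted p = 2.92e-04). Both fitted sizes depend on controls at the detection limit. The treated microglia stayed at 4.83% and 2.64% of the level of astrocytes given the same fibril.

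Of the filament genes, Vim was at 1149.7, 1187 and 1097 CPM in control microglia and 1653, 1499 and 1571 CPM with Aβ42, a rise of 0.46 ± 0.090 on the log2 scale with adjusted p = 0.00108. With Aβ40 it was at 1179, 1135 and 1181 CPM, and the change of 0.026 ± 0.090 did not pass the test (adjusted p = 0.851). Synm was low, at 7.77, 11.6 and 7.63 CPM in the controls, 0.800, 2.47 and 2.57 CPM with Aβ42 and 2.65, 2.24 and 1.84 CPM with Aβ40, and some treated libraries rest on as few as 2 and 4 counts. Its log2 fold change was −1.91 ± 0.26 with Aβ42 (adjusted p = 5.50e-05) and −1.93 ± 0.33 with Aβ40 (adjusted p = 4.72e-04). Synm was thereby the one of the 10 genes that fell in both cell types with both fibrils.

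Gfap, Nes and S100b did not pass the test in microglia with either fibril. Gfap measured 43.8, 32.8 and 34.0 CPM in the controls, 24.8, 36.6 and 41.3 CPM with Aβ42 and 28.0, 29.1 and 24.4 CPM with Aβ40, with log2 fold changes of −0.061 ± 0.17 (adjusted p = 0.782) and −0.44 ± 0.19 (adjusted p = 0.0849). The Aβ40 libraries of Gfap all lay under the controls, and a fit of these 2 groups alone gave adjusted p = 0.0177. Nes ranged from 6.89 to 21.7 CPM over the 9 libraries, with log2 fold changes of 0.23 ± 0.23 and −0.57 ± 0.28. S100b ranged from 40.6 to 57.6 CPM, with −0.17 ± 0.13 and 0.055 ± 0.13, and was called lower with Aβ42 only when Aβ42 replicate 1 was left out (−0.26, adjusted p = 0.0371). The summed astrocyte markers moved from 1379 to 1561 CPM in control microglia to 823 to 924 CPM with Aβ42 and 938 to 1022 CPM with Aβ40. Most of that sum was Glul, at 1261, 660 and 767 CPM when scaled over all 18 libraries. Other markers moved both ways on that scale. Gja1 went from 19.7 CPM to 35.3 and 57.6 CPM, and Slc1a3 from 80.2 CPM to 22.2 and 21.5 CPM. The sum therefore does not measure the share of astrocytes. What part of the Gfap, Nes and S100b counts of these libraries came from remaining astrocytes was not tested.

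Aldh1l1 and Ptx3 were close to absent. Aldh1l1 had 3, 2 and 3 counts in control microglia, 1, 27 and 18 with Aβ42 and 1, 6 and 1 with Aβ40, with overlapping levels. Ptx3 had 2, 0 and 0 counts in the controls, 4, 35 and 21 with Aβ42 and 3, 2 and 2 with Aβ40. With Aβ42 the level of Ptx3 was 1.60, 1.52 and 1.20 CPM, 3.10-fold the level of 3 counts in each control library, and with Aβ40 it was at the limit. Neither gene was tested.

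**Figure D3:**
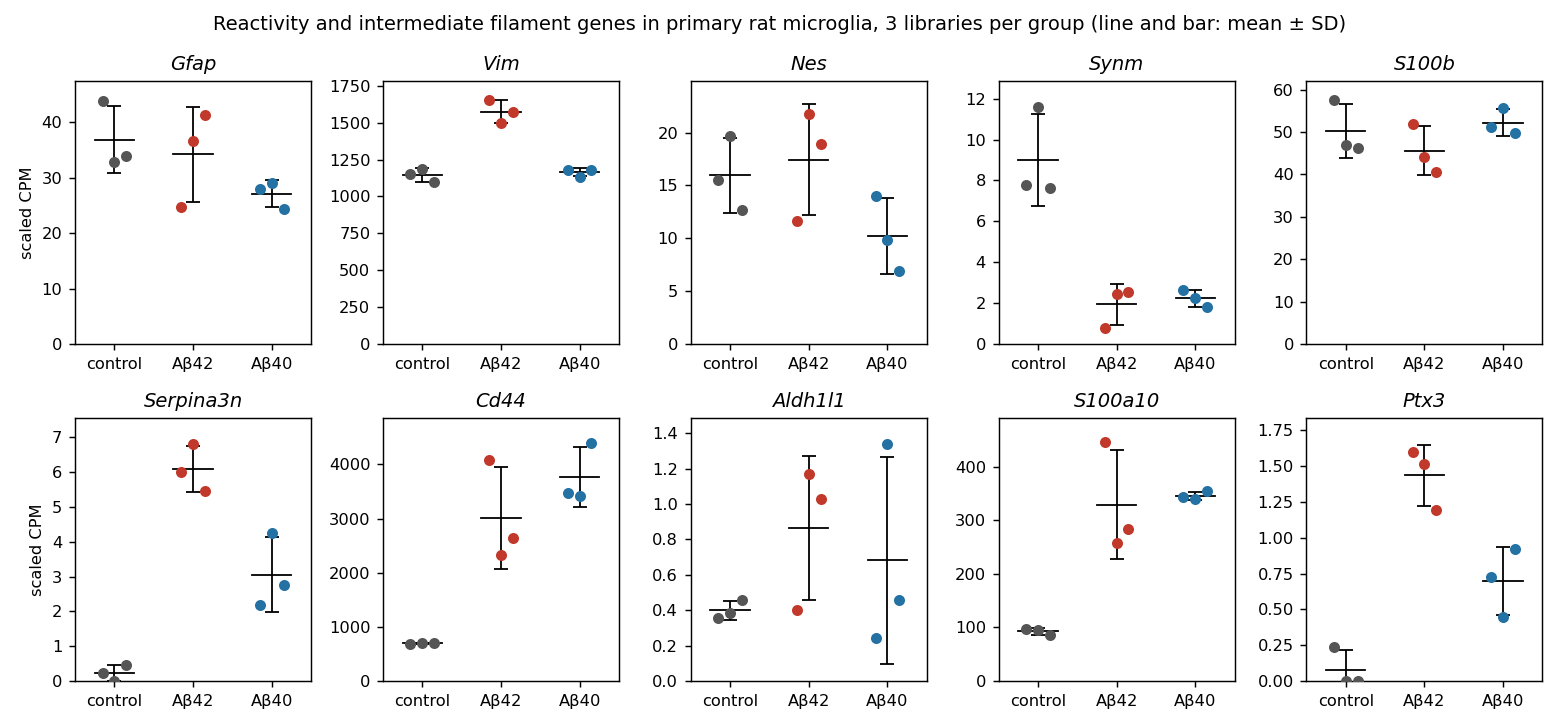
Level of each of the 10 genes in microglia, in scaled CPM on axes that start at 0 and differ between panels, with the same colours, points and error bars as for astrocytes. Cd44, S100a10 and Serpina3n lie higher in both fibril groups and Synm lower, Vim lies higher with Aβ42, and 1 of the Aβ42 libraries (replicate 1) stands above its group for Cd44 and S100a10.

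Between the fibrils in microglia, Vim was higher with Aβ42 than with Aβ40 by 0.43 ± 0.090 on the log2 scale (adjusted p = 0.0161) and Serpina3n by 0.97 ± 0.31 (adjusted p = 0.0465). These were the 2 called genes of the 8 tested, against 20.3% of all tested genes, 11.3% higher and 9.01% lower. The libraries of both were also separate, as were those of 29.3% of all tested genes. The comparison depended on single libraries. Without Aβ42 replicate 1 there were 7 called genes, Gfap (0.50), Vim (0.40), Nes (0.92) and Serpina3n (0.97) higher with Aβ42, and S100b (−0.31), Cd44 (−0.60) and S100a10 (−0.35) lower, and 53.8% of all tested genes were called in that setting. Neither Vim nor Serpina3n stayed under an adjusted p-value of 0.05 without Aβ42 replicate 2 or 3 or without any 1 of the 3 Aβ40 libraries, and neither did in a fit of these 2 groups alone (0.0635 and 0.0800). Serpina3n was also lost under library totals (0.0501), the Wald test (0.0669) and the replicate block (0.0842), and so kept its call in 3 of 12 alternatives, with adjusted p-values from 0.0146 to 0.195, against 7 of 13 for Vim, from 6.52e-05 to 0.0820.

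Untreated cells of the 2 types differed for all 10 genes, against a background of 68.8% of the 11581 genes tested over the 18 libraries. For this comparison levels were scaled over all 18 libraries. In control astrocytes 9 genes were higher, where 34.5% of tested genes were, and Cd44 was lower, as were 34.2%. The libraries of the cell types were separate for all 10, and for 67.1% of tested genes. Gfap stood at 2652 ± 777 CPM in control astrocytes and 41.0 ± 6.70 CPM in control microglia (SD, n = 3), 64.4-fold apart with a log2 difference of 6.01 ± 0.23 and adjusted p = 4.84e-14. The difference was 28.6-fold for S100b, 14.3-fold for Nes, 8.46-fold for Synm, 5.72-fold for Vim and 4.26-fold for S100a10. Aldh1l1, Serpina3n and Ptx3 were at or under the detection limit in control microglia, and their astrocyte levels were 70.1-fold, 50.9-fold and 22.1-fold that limit. Cd44 was at 352 ± 87.7 CPM in astrocytes and 778 ± 11.8 CPM in microglia, a log2 difference of −1.15 ± 0.18 (adjusted p = 1.19e-05). Scaling by library totals moved the median of all genes by 0.28 on the log2 scale in this comparison and changed no direction among the 10 genes.

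The level in control microglia was 1.55% of that in control astrocytes for Gfap, 3.49% for S100b and 7.06% for Nes. It was 11.99% for Synm, 17.5% for Vim and 23.4% for S100a10. Other astrocyte markers ran from 0.204% for Mlc1, a membrane protein of astrocyte endfeet, through 1.28% for the water channel Aqp4, 3.06% for the gap junction gene Gja1 and 4.35% for the glutamate transporter Slc1a3 to 95.1% for glutamine synthetase, Glul. The percentages of Gfap and S100b lie in the range of these markers, and those of Vim and S100a10 exceed all but 3 of the 15.

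**Figure D4:**
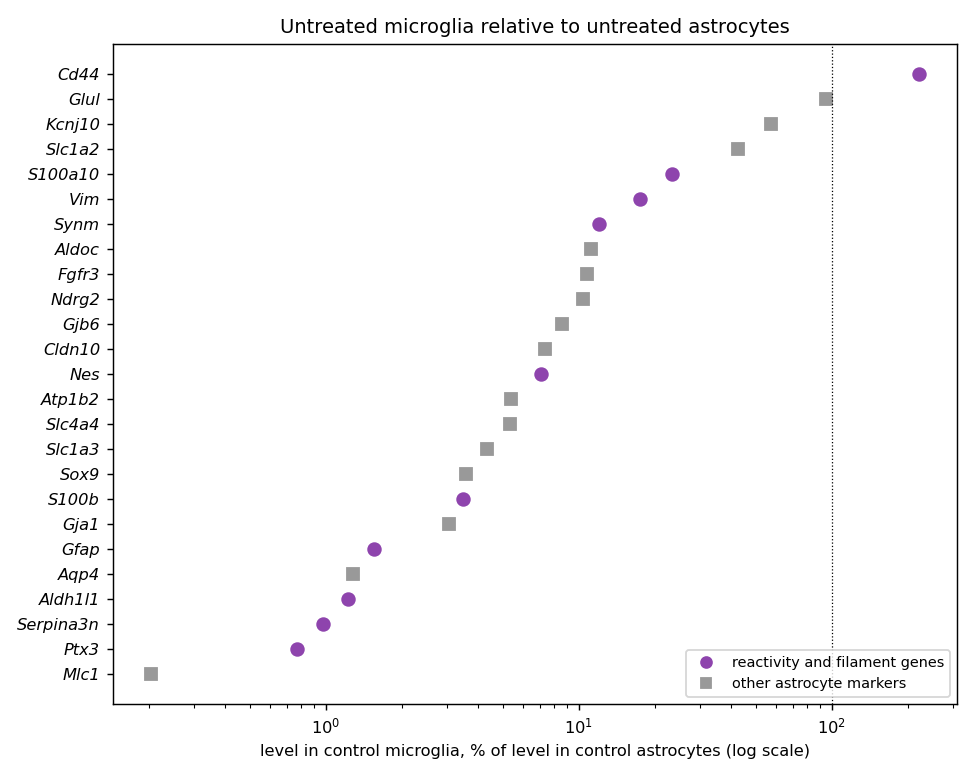
Level in control microglia as a percentage of the level in control astrocytes, on a log scale with equality dotted, for the 10 genes (purple circles) and 15 other astrocyte markers (grey squares), from group means of 3 libraries each. Cd44 is the one gene above 100%, at 221%, and Ptx3, Serpina3n, Aldh1l1 and the markers Gjb6 and Cldn10 rest on 1 to 8 microglia counts in all.

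The order of the cell types was the same in every condition for Cd44 and changed with fibrils for S100a10. Cd44 was highest in Aβ40-treated microglia (4176 ± 579.9 CPM) and Aβ42-treated microglia (3369 ± 962 CPM), which overlapped. Then came Aβ42-treated astrocytes (1315 ± 91.7 CPM), Aβ40-treated astrocytes (1100.2 ± 29.0 CPM), control microglia and control astrocytes, none of which overlapped with its neighbour. For S100a10 the highest were control astrocytes (441 ± 96.2 CPM), Aβ40-treated microglia (384 ± 5.32 CPM) and Aβ42-treated microglia (368 ± 104 CPM), whose libraries overlapped. Below them, the Aβ42-treated (260.3 ± 20.3 CPM) and Aβ40-treated astrocytes (256 ± 23.2 CPM) overlapped with each other, and control microglia were lowest (103 ± 7.65 CPM). Treated microglia thus held more S100a10 than treated astrocytes, whereas control microglia held less than control astrocytes. For Vim, Aβ42-treated microglia reached 56.4% of the level of Aβ42-treated astrocytes, against 17.5% in the controls.

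The response of astrocytes minus that of microglia was tested as an interaction over the 18 libraries. With Aβ42 fibrils 6 of the 10 genes were called, where 37.3% of tested genes were, and the astrocyte response was the lower one in each, as it was for 19.3% of tested genes and the higher one for 17.9%. The difference of responses was −2.58 ± 0.24 on the log2 scale for S100a10 (adjusted p = 1.29e-07), which fell in astrocytes and rose in microglia. Vim, with the same opposition of signs, had −1.69 ± 0.22 (adjusted p = 6.03e-06). Nes, S100b and Gfap fell in astrocytes and did not pass the test in microglia, and their differences were −1.68 ± 0.45 (adjusted p = 0.00625), −1.498 ± 0.21 (adjusted p = 1.50e-05) and −1.04 ± 0.27 (adjusted p = 0.00562). Serpina3n, which rose in both, had −2.20 ± 0.60 (adjusted p = 0.00595), a fitted size that depends on control microglia at the detection limit.

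With Aβ40 fibrils 4 of the 10 genes were called, where 32.5% of tested genes were, 16% with the lower and 16.5% with the higher response in astrocytes. They were S100a10 at −2.68 ± 0.24 (adjusted p = 1.01e-07), S100b at −1.38 ± 0.21 (adjusted p = 4.90e-05), Vim at −1.05 ± 0.22 (adjusted p = 9.11e-04) and Cd44 at −0.78 ± 0.25 (adjusted p = 0.0213). The Cd44 call was lost without Aβ40-treated microglia replicate 3 (−0.65, adjusted p = 0.0660). Without control astrocyte replicate 2, Gfap (−0.62, adjusted p = 0.0330) and Nes (−0.97, adjusted p = 0.0416) were called as well, where 35.3% of tested genes were. For Synm the difference of responses was −0.24 ± 0.29 with Aβ42 and 0.28 ± 0.35 with Aβ40, and neither passed the test.

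A change of at least 5-fold at an adjusted p-value under 0.05 was reached by few of the 10 genes. In astrocytes these were Ptx3 and Serpina3n with Aβ42, where 6.27% of all tested genes reached it, and Ptx3 with Aβ40, where 5.42% did. Without control astrocyte replicate 2 the log2 fold change of Serpina3n with Aβ42 was 2.17, which is under 5-fold. In microglia they were Serpina3n with Aβ42, where 6.26% did, and Serpina3n and Cd44 with Aβ40, where 5.83% did. The lowest log2 fold change of that Cd44 rise under the alternative settings was 2.30, also under 5-fold. Between the fibrils it was reached by none of the 10 in edgeR's test, with shares of 0.00855% of tested genes in astrocytes and 0% in microglia. Untreated cell types differed by that much in 8 of the 10, Cd44 and S100a10 being the others, against 19.9% of tested genes. The responses of the cell types differed by that much for S100a10 with both fibrils, against 6.67% of tested genes with Aβ42 and 5.91% with Aβ40.

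Ratios of counts within a library do not depend on scaling, and they are not corrected for transcript length, so they were compared only between groups. The two-sided exact permutation test has a smallest p of 0.1 at 3 libraries a group, and after adjustment over 30 ratio comparisons the smallest value was 0.214, so none could be called. The ratio of Gfap to Vim was 0.370 ± 0.088 (SD, n = 3) in control astrocytes, 0.400 ± 0.038 with Aβ42 and 0.419 ± 0.032 with Aβ40, with overlapping libraries. A difference between the falls of the 2 genes was not detectable at this spread. Aldh1l1 relative to Gfap went from 0.0140 ± 0.0023 in control astrocytes to 0.0937 ± 0.0036 with Aβ42 and 0.0674 ± 0.0042 with Aβ40, and the 3 groups did not overlap. S100a10 relative to S100b went from 0.278 ± 0.036 to 0.509 ± 0.052 and 0.400 ± 0.043 in astrocytes, and from 1.86 ± 0.18 to 7.12 ± 1.36 and 6.63 ± 0.52 in microglia. In both cell types the treated libraries lay above the controls.

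The rest of the filament family was read beside Gfap and Vim, from a list of 17 genes that includes the filament-binding Tchp, of which 15 were tested in astrocytes. With Aβ42 fibrils 0 were called higher and 9 lower, with a median log2 fold change of −0.99, and with Aβ40 fibrils 0 and 6 were, with a median of −0.65, beside medians of all tested genes of −0.0047 and 0.0017. At an unadjusted p-value under 0.05, 0 were higher with either fibril and 9 and 7 were lower, where 45% and 42.7% of all tested genes passed that limit in either direction. Those that fell with Aβ42 included the epithelial keratins Krt19 (−5.02 ± 0.33) and Krt8 (−1.63 ± 0.27). The named genes of all lists are those with the largest changes among called genes whose libraries did not overlap. The counts of this and the following lists stand beside the shares of all tested genes called higher and lower. In astrocytes these shares were 16.5% and 20.4% with Aβ42 and 14.9% and 18.4% with Aβ40. For microglia they were 27.1% and 26.6% with Aβ42 and 19.6% and 21.4% with Aβ40. In microglia, of 11 tested, 5 were higher and 2 lower with Aβ42, with a median of 0.14, and 4 and 1 with Aβ40, with a median of 0.42. The neurofilament Nefh (3.04 ± 0.38) and the keratin Krt18 (2.06 ± 0.20) rose with Aβ42, Nefh from 3, 2 and 5 control counts, and Tchp (−1.33 ± 0.11) and the nuclear lamin Lmnb1 (−0.55 ± 0.17) fell.

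Cytolinkers are proteins that tie filaments to actin, microtubules and junctions. All 3 that were tested, Plec, Ppl and Macf1, fell in astrocytes with both fibrils, the first by 1.18 ± 0.21 on the log2 scale with Aβ42 and by 0.80 with Aβ40. In microglia Plec rose, by 2.16 ± 0.19 with Aβ42 (adjusted p = 1.44e-06) and 1.90 ± 0.19 with Aβ40 (adjusted p = 5.52e-06), as did Ppl, at 0.64 ± 0.15 and 0.83 ± 0.16. Macf1 was called lower in microglia with Aβ42, at −0.51 ± 0.13.

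A list of 12 S100 genes other than S100b and S100a10, with the binding partner S100pbp among them, moved in opposite directions in the 2 cell types. In astrocytes, of 9 tested, 1 was higher and 7 lower with Aβ42, and 1 and 6 with Aβ40, with medians of −1.20 and −0.80. S100a3 (−2.07 ± 0.34) and S100a13 (−1.81 ± 0.15) had the largest falls with Aβ42, and S100a5 was the one that rose (2.21 ± 0.23). In microglia, of 10 tested, 8 were higher and 0 lower with Aβ42, and 9 and 0 with Aβ40, with medians of 3.12 and 2.89, or 3.02 and 2.66 with the 3 genes at the detection limit in the controls set against that limit. At an unadjusted p-value under 0.05, 9 were higher and 0 lower with each fibril, where 59.6% and 48.2% of all tested genes passed that limit in either direction. S100a3 was at 0, 0 and 1 counts in control microglia and at 12, 228 and 184 with Aβ42. S100a8, a subunit of the antimicrobial calprotectin, went from 0, 1 and 0 counts to 1, 127 and 148, so that Aβ42 replicate 1 stayed at the limit. Differences of response between the cell types were called for 7 of 11 genes with Aβ42 and 6 of 11 with Aβ40, all lower in astrocytes. The response was called lower in astrocytes for 19.3% and 16% of all tested genes.

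Among the annexins and Ahnak, which include the partners of S100a10, 1 of 9 was higher and 3 lower in astrocytes with Aβ42, and 2 and 3 were with Aβ40, with medians of −0.20 and −0.047. Anxa3 fell in astrocytes (−4.47 ± 0.24) and in microglia (−2.42 ± 0.10). Ahnak, a scaffold that binds the complex of annexin A2 and S100a10, fell in astrocytes (−1.14 ± 0.11) and rose in microglia (1.49 ± 0.11). In microglia 4 of 9 were higher and 2 lower with Aβ42, and 4 and 3 with Aβ40, with medians of 0.083 and 0.048.

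The list around Cd44 holds hyaluronan enzymes, binding proteins and cytoskeletal linkers. Of 12 tested in astrocytes, 5 were higher and 5 lower with each fibril, with medians of −0.13 and −0.11. Has2, a hyaluronan synthase, rose by 5.43 ± 0.20 with Aβ42 and 5.05 ± 0.20 with Aβ40, and Tnfaip6, which modifies hyaluronan, by 1.75 ± 0.28 and 1.43 ± 0.28. The receptor Lyve1 (−4.64 ± 0.36) and the mitotic gene Hmmr (−2.45 ± 0.28) fell with Aβ42. In microglia 4 were higher and 4 lower with Aβ42 and 4 and 3 with Aβ40, with medians of 0.058 and 0.29, and Has2 rose there as well (3.39 ± 0.28 with Aβ42, 3.70 ± 0.30 with Aβ40), as did the hyaluronidase Hyal1 (2.87 ± 0.27 and 3.78 ± 0.28).

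Of the other pentraxins, 3 were tested in astrocytes, and with Aβ42 Nptx1 rose (0.72 ± 0.19), Nptxr fell (−1.52 ± 0.26) and Nptx2 did not pass the test, while with Aβ40 Nptx2 and Nptxr fell and Nptx1 did not pass the test. In microglia Nptx2 (2.02 ± 0.43) and Nptxr (1.22 ± 0.20) were called higher with Aβ42, and 1 of the 2 was with Aβ40. In the folate pathway of Aldh1l1, 3 of 12 genes were higher and 1 lower in astrocytes with each fibril, with medians of 0.089 and −0.032. The mitochondrial relative Aldh1l2 rose by 4.19 ± 0.19 and 4.27 ± 0.19, and Mthfd2l by 1.55 ± 0.19 and 1.42 ± 0.18. In microglia 6 were higher and 4 lower with Aβ42 and 2 and 3 with Aβ40, with medians of 0.0042 and 0.071, and Aldh1l2 did not pass the test there (−0.37 ± 0.22, adjusted p = 0.176).

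**Figure D5:**
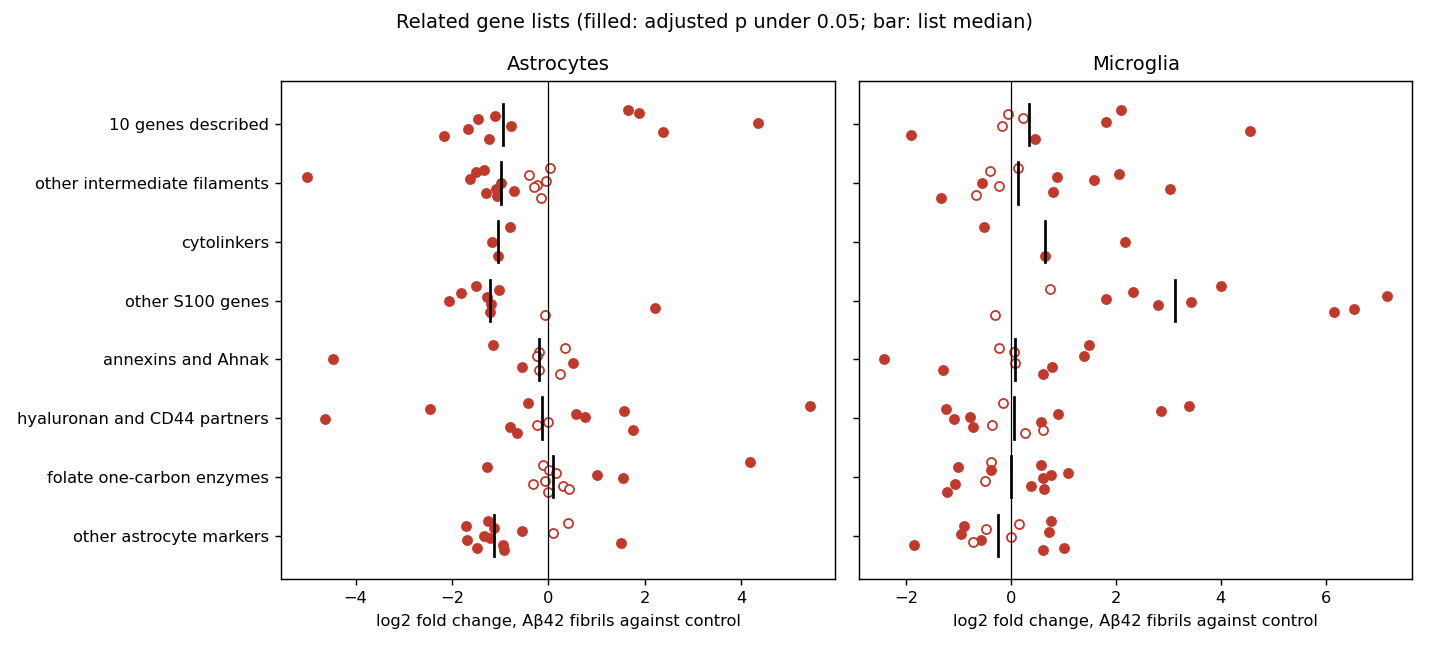
Log2 fold change with Aβ42 fibrils of each tested gene of the related lists, in astrocytes (left) and microglia (right); filled points have an adjusted p-value under 0.05 and the black bar is the list median. The S100 list has its median at −1.20 in astrocytes and 3.12 in microglia, and 10 of 13 other astrocyte markers were called lower in astrocytes, where 20.4% of all tested genes were.

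Other genes often called pan-reactive behaved unlike Gfap and Vim in astrocytes. Of 9 tested, 6 were higher and 1 lower with each fibril, with medians of 1.501 and 1.49. The metalloreductase Steap4 rose by 7.11 ± 0.19 and the iron-carrier protein Lcn2 by 6.60 ± 0.25 with Aβ42, while the small heat shock gene Hspb1 fell (−1.85 ± 0.27). In the list labelled A1, 5 of 8 were higher and 2 lower with Aβ42 and 5 and 1 with Aβ40, with medians of 1.63 and 1.13, Serping1 (3.63 ± 0.12) and Gbp2 (3.23 ± 0.19) having the largest rises. In the list labelled A2 without S100a10 and Ptx3, 4 of 8 were higher and 2 lower with Aβ42 and 2 and 2 with Aβ40, with medians of 0.46 and 0.22. Ptgs2, a prostaglandin synthase, rose the most there (5.41 ± 0.31). Microglia had 6 of 8, 6 of 8 and 6 of 7 genes of these lists higher with Aβ42 and 7 of 8, 6 of 8 and 6 of 7 with Aβ40. Among all tested genes, 27.1% and 19.6% were called higher in microglia and 16.5% and 14.9% in astrocytes. Genes of these lists thus rose in both cell types.

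Falls like those of Gfap and S100b were seen among other astrocyte markers. Of 13 tested in astrocytes, 1 was higher and 10 lower with Aβ42, and 2 and 9 with Aβ40, with medians of −1.13 and −0.83. Among all tested genes 20.4% and 18.4% were called lower. The largest falls were those of Atp1b2, a subunit of the sodium pump (−1.72 ± 0.16), and Ndrg2 (−1.69 ± 0.15), and the glutamate transporter Slc1a2 rose (1.51 ± 0.18). Summed over 15 markers, the level in astrocytes was 9037 to 10775 CPM in the controls, 6427 to 6679 CPM with Aβ42 and 7096 to 7280 CPM with Aβ40.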

How the data were processed

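Poly(A) RNA was made into libraries with a stranded TruSeq kit and sequenced from 18 samples, 3 for each of the 6 groups. The deposited tables hold whole-number read counts per gene symbol, which the authors made on rat build rn5. Per the study's methods, STAR aligned the reads, Salmon quantified genes and DESeq2 gave the gene counts, with no versions given here or in the submitters' processing notes. Rows without a gene, 26.0 to 34.2% of the reads listed in astrocytes and 21.7 to 24.5% in microglia, were left out of library sizes and tests. Replicates were not pooled, and no pair of libraries looked like 1 library deposited again.

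Genes were filtered on low counts, scaled by TMM and tested within each cell type with edgeR 4.0.16 (R 4.3.3, limma 3.58.1), by the quasi-likelihood test on 9 libraries without covariates. Untreated cell types and the difference of responses were tested in 1 fit of all 18 libraries. A gene was called at a Benjamini-Hochberg adjusted p-value under 0.05 over all tested genes. Levels are mean ± SD over 3 libraries and fold changes carry SEs. Ratios of counts used a pseudocount of 0.5 for their tests. Scripts were tested on simulated data. The 10 genes and all lists were chosen with earlier results of these data known. Of each list, the named genes are at most 2 with the largest rise and 2 with the largest fall with Aβ42 among called genes without overlap, beside those read with a member. The alternatives were DESeq2 1.42.0 size factors and Wald test, library totals, no filter, 10 counts in every library, only the groups compared, the replicate number as a block, a 5-fold minimum, a pseudocount of 1 and leaving out each library in turn.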

Additional observations from a re-analysis of the deposited data

Results flagged for a closer look

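The response to the fibrils differed between astrocytes and microglia for 6 of the 10 genes with Aβ42 and for 4 with Aβ40. This was by edgeR's quasi-likelihood test of the interaction itself, which called 37.3% and 32.5% of all tested genes. As differences of log2 fold changes, astrocytes minus microglia, the Aβ42 values were −1.04 for Gfap, −1.69 for Vim, −1.68 for Nes, −1.498 for S100b, −2.20 for Serpina3n and −2.58 for S100a10. The Aβ40 values were −1.05 for Vim, −1.38 for S100b, −0.78 for Cd44 and −2.68 for S100a10. S100a10 had the lowest adjusted p-value with each fibril, 1.29e-07 and 1.01e-07, and moved down in all 6 treated astrocyte libraries relative to the control mean and up in all 6 treated microglia libraries. The size for Serpina3n rests on 5 counts in the 3 control microglia libraries.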

How the results depend on the processing

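Of 1194 values of the 10 genes under alternative settings, 1140 kept their direction and their side of the threshold, 21 lost and 14 gained a call, and 19 changed sign. Requiring a 5-fold change as well left 733 genes and 2 of the 10 with Aβ42 in astrocytes, 634 and 1 with Aβ40, and 1 gene between the fibrils. It left 678 and 1, 632 and 2, and 0 and 0 in microglia, 2309 genes between untreated cell types, and 772 and 1 and 684 and 1 for the difference of responses. Between the fibrils in astrocytes, DESeq2's Wald test called 141 genes and 1 of the 10, a fit of the groups compared 265 and 2, and the filter of 10 counts 6 genes. In microglia that fit called 106 genes and 0 of the 10, and library totals 2174 genes and 1 of the 10. The filter of 10 counts left 3, 2 and 1 of the 10 in the microglia comparisons, where 53%, 40.5% and 22.1% of its tested genes were called. Between untreated cell types it left 6, where 64.9% were called. Synm, Serpina3n, Aldh1l1 and Ptx3 had microglia libraries under 10 counts and were not tested with this filter. Every gene of the 10 that it did test was thus called between untreated cell types.

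Same-numbered libraries correlated between −0.53 and 0.36 in astrocytes and −0.19 and 0.22 in microglia, and in 3 and 5 of 18 cases a library correlated best with its own number, so the numbers were not taken to pair libraries. With the replicate block 0 genes were called between the fibrils in astrocytes, 752 genes and 1 of the 10 in microglia, Synm became −0.043 there, and Nes lost its Aβ40 call in astrocytes (adjusted p = 0.0517).

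Leaving out single libraries, 0 to 4 genes were called between the fibrils in astrocytes, and 99 to 6004 genes and 0 to 7 of the 10 in microglia, the upper ends without Aβ42 replicate 1 in each cell type. The 10 genes kept 10 calls with Aβ42 and 9 to 10 with Aβ40 in astrocytes, 5 to 6 and 4 in microglia, and 6 and 3 to 6 for the difference of responses. The shares of all tested genes called in these settings moved as well. They ran from 28.4% to 46.9% and 25.1% to 41.8% in astrocytes and from 42.7% to 70.3% and 32.8% to 37.3% in microglia. For the difference of responses they ran from 31.8% to 46.6% and 27.3% to 35.3%. Signs changed mostly for small values. Between the fibrils S100a10 ran from −0.043 to 0.080 in astrocytes and from −0.35 to 0.072 in microglia, and Synm in microglia from −0.093 to 0.16, or −0.028 by the Wald test. Against control in microglia, Gfap with Aβ42 ran from −0.21 to 0.097, S100b with Aβ40 from −3.90e-04 to 0.19, and Vim with Aβ40 was −6.39e-04 under library totals. The difference of responses ran from −0.36 to 0.043 for Cd44 with Aβ42, and for Ptx3 from −2.56 to 1.18 with Aβ42 and −1.97 to 1.78 with Aβ40, the low ends without control microglia replicate 1, which holds both control counts. Of the log2 ratios, Gfap to Vim between the fibrils in microglia ran from −0.28 to 0.12, and S100a10 to S100b from −0.050 to 0.23. Nes to Vim in astrocytes ran from −0.46 to 0.15 with Aβ42, −0.42 to 0.19 with Aβ40 and −0.26 to 0.21 between the fibrils. Aldh1l1 to Gfap between the fibrils in microglia ran from −0.46 to 0.51, and was −0.10 with a pseudocount of 1. Except where an alternative tests fewer genes or libraries, the cause of these changes was not tested. In the shallowest microglia library 3 counts equal 1.38 CPM, which limits Ptx3, Aldh1l1, Serpina3n and Synm there.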

Other observations

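Markers of other cells were tested by edgeR in the same fits. There, 16.5% of all tested genes were called higher and 20.4% lower in astrocytes with Aβ42, and 14.9% and 18.4% with Aβ40. In microglia these shares were 27.1% and 26.6% with Aβ42, and 19.6% and 21.4% with Aβ40. Of 13 microglial markers, 0 were higher and 11 lower in astrocytes with Aβ42 and 0 and 12 with Aβ40, and in microglia 1 and 10 and 1 and 12 were. Of 10 oligodendrocyte-lineage markers, 0 were higher and 5 lower in astrocytes with each fibril, and 6 and 1 and 5 and 1 in microglia. Of 7 fibroblast markers, 1 was higher and 3 lower in astrocytes with each fibril, and of 6 in microglia 3 and 2 and 2 and 3 were. Of 6 neuronal markers, 0 were higher and 5 lower in astrocytes with each fibril, and 2 and 0 in microglia. Of 3 endothelial markers tested, 1 and 1 and 0 and 1 were called in astrocytes, and 0 and 2 and 1 and 1 in microglia. Of 12 other astrocyte markers tested in microglia, 4 were higher and 4 lower with each fibril, with medians of −0.24 and −0.061.

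The ratio of Gfap to Vim in microglia was 0.0323 ± 0.0053 in the controls, 0.0220 ± 0.0060 with Aβ42 and 0.0235 ± 0.0025 with Aβ40, and the treated libraries lay under the controls (exact permutation test, two-sided p = 0.1, the smallest possible, adjusted p = 0.214). S100a10 relative to Anxa2 was 1.67-fold lower in astrocytes with Aβ40 and 1.88-fold higher in microglia with Aβ40, without overlap with the controls and with the same p-values in the exact permutation test. With Aβ42 the ratio was 1.45-fold lower in astrocytes and 1.32-fold higher in microglia. These libraries overlapped with the controls (exact permutation test, two-sided p = 0.2 and 0.3).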
